A study of Mus musculus with 24 samples.

Results

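The EGR zinc-finger factors (Egr1, Egr2, Egr3, Egr4), the NR4A nuclear receptors (Nr4a1, Nr4a2, Nr4a3), the serum response factor gene Srf and the immediate early response genes Ier2 and Ier3 were followed in embryonic mouse neural stem and progenitor cells given a glucocorticoid. These 10 genes were chosen by symbol from the 38924 entries of each deposited table, and each symbol was found once in all 4 tables. Neurospheres, floating clusters of neural stem and progenitor cells, were grown from the cortex or the hypothalamus of embryos at day 14.5 and treated at passage 3. They received 100 nM dexamethasone, a synthetic glucocorticoid, or an equal volume of ethanol, called vehicle below, for 4 hours. The 8 groups were female cortex, male cortex, female hypothalamus and male hypothalamus, each with dexamethasone and with vehicle, at n = 3 biological replicates and 24 libraries in all. No genetic change is given in the labels, and the strain is not stated in them. They do not say whether a replicate was 1 embryo, a litter or a pool, so p-values measure the spread between these cultures.

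Immediate-early genes are transcribed within minutes of a growth factor, depolarising or stress signal, from promoters whose factors are already bound. SRF binds CArG boxes together with ELK factors, which the ERK kinases phosphorylate, or with the actin-regulated MKL (MRTF) coactivators, and CREB binds cAMP response elements through the sequence TGACG. EGR proteins bind GC-rich DNA and also induce Nab2, whose product represses them, and NR4A receptors act without a known physiological ligand. In brain these genes are best known as markers of neuronal activity, and in dividing cells as part of the response to mitogens.

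The promoters of Srf and Egr2, which hold CArG boxes, and of Nr4a1 and Nr4a2, which hold 5-base cores of the cAMP response element, are shown because these 4 genes fell by different amounts in cortex. Each sequence is the 250 bases before a transcription start in RefSeq (GRCm38.p6), read 5′ to 3′ on the gene's strand. Where a gene had several starts, a window with the most matches of the motif shown was printed. Capitals mark the CArG boxes in Srf and Egr2 and the letters TGACG or their complement CGTCA in Nr4a1 and Nr4a2. The Egr2 window also holds 2 TGACG cores and the Srf window 1, left in lower case. The part of these motifs in the size of the falls was not tested.
Srf, chr17:46556163-46556412, minus strand: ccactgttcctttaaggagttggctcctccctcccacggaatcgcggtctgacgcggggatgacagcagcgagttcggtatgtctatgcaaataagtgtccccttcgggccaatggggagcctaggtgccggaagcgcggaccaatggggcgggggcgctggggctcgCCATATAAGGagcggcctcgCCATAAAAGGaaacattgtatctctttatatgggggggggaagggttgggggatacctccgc
Egr2, chr10:67537619-67537868, plus strand: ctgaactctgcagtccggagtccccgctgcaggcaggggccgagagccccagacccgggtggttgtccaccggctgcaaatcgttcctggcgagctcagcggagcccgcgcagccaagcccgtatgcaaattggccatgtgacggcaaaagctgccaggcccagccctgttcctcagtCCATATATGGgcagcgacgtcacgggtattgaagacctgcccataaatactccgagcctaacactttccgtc
Nr4a1, chr15:101266596-101266845, plus strand: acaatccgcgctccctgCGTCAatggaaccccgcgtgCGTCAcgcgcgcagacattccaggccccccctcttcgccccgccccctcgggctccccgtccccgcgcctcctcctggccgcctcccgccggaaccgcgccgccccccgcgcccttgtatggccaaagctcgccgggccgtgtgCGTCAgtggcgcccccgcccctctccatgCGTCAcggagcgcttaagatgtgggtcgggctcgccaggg
Nr4a2, chr2:57124004-57124253, minus strand: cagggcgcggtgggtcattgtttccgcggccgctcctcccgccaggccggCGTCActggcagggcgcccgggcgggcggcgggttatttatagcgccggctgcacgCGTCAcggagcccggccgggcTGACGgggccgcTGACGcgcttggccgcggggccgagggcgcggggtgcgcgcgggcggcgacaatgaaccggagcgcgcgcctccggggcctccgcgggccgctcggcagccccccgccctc
The Srf boxes began 82 and 62 bases before the start, and the Egr2 box 72 bases before it. These cores began 233, 213, 69 and 40 bases before the Nr4a1 start and 200, 144, 123 and 111 bases before the Nr4a2 start. RefSeq windows were found for 7 of the 10 genes, 11 windows in all because Egr2 has several starts. Searched on both strands, a CArG box was present in any window for 2 of these 7 genes and the core TGACG for 6. The Egr2 window at chr10:67535249-67535498 held neither. The shares that follow are per window, not per gene. A CArG box was found in 1.47% of 32851 promoter windows of the same length, and the core in 17.8%. The full site TGACGTCA, which contains the core on both strands, occurred in 1.55% of windows, and the NR4A element AAAGGTCA in 1.34%. The palindromic glucocorticoid element, AGAACA and TGTTCT with 3 bases between them, occurred in 0.00913% of all windows. None of the 11 windows held one of these last 3 motifs. An EGR site, GCGTGGGCG or GCGGGGGCG, was found in 3.06% of all windows and in those of Srf and Nr4a1. A match describes letters in a window, not binding.

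All 10 genes are protein-coding and none shares exon bases with another annotated gene (GENCODE vM21, GRCm38). Egr2 lies on chromosome 10 (67535475 to 67542188), Egr3 on chromosome 14 (70077203 to 70082614) and Egr4 on chromosome 6 (85511121 to 85513589). Nr4a1 lies on chromosome 15 (101254269 to 101274795), Nr4a2 on chromosome 2 (57106830 to 57124003) and Nr4a3 on chromosome 4 (48045153 to 48086447). Srf (46548329 to 46556175) and Ier3 (35821684 to 35822923) are on chromosome 17, and Ier2 is on chromosome 8 (84661331 to 84662852).

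Reads assigned to genes numbered 16.39 to 20.94 M per library in cortex and 16.04 to 25.49 M in hypothalamus. Of these reads, 1.09% to 2.67% in cortex and 21.3% to 40% in hypothalamus came from mt-Rnr2, a ribosomal RNA of mitochondria, so region and library composition cannot be told apart. Levels are given in RPM (reads per M reads, the deposited normalised signal) unless they are said to be rescaled, which means that TMM put all 24 libraries on 1 scaling. The rescaled sum of 10 neural stem cell markers was 5839 to 6788 RPM in cortex and 6640 to 8361 RPM in hypothalamus, with none of them at 0 in any group. On the same rescaled levels, the 7 microglial markers summed to at most 0.648 RPM in cortex and 1.04 RPM in hypothalamus. The 7 mural and contractile markers had rescaled sums of 4.30 to 10.2 RPM in cortex and 34.4 to 95.6 RPM in hypothalamus, with none at 0 throughout a group, and their part in any regional difference was not tested. Both libraries of male hypothalamus replicate 2 held the female-specific RNA Xist at 26.4 and 30.1 RPM, although they are labelled male. Female hypothalamus libraries held far more, 388.7 to 590.3 RPM with vehicle and 306.0 to 449.5 RPM with dexamethasone. The source of Xist in the male libraries was not tested. Results for treatment and for the difference between regions are given with and without male hypothalamus replicate 2. Female cortex replicate 1 stood apart from replicates 2 and 3 over all genes, with a chi-square per gene of 68.2 to 121.3 against 15.9 and 19.2 between replicates 2 and 3. Its libraries held 3.95 and 8.03 RPM of Gfap, an intermediate filament gene of astrocytes. Those of female cortex replicates 2 and 3 held 173.4 to 554.1 RPM. Male cortex means of Gfap were 5.43 RPM with vehicle and 10.5 RPM with dexamethasone, near female replicate 1. The part of these Gfap differences in the results was not tested. The vehicle library of male hypothalamus replicate 3 stood apart too, at 247.3 and 269.0 per gene from the other two, which were at 28.4 from each other. Fkbp5, a glucocorticoid-induced co-chaperone, rose in all 4 comparisons, by 3.40, 2.94, 2.71 and 2.36 on the log2 scale in female cortex, male cortex, female hypothalamus and male hypothalamus, where 1.4%, 26.7%, 0.793% and 0.226% of genes were called higher.

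**Figure D1:**
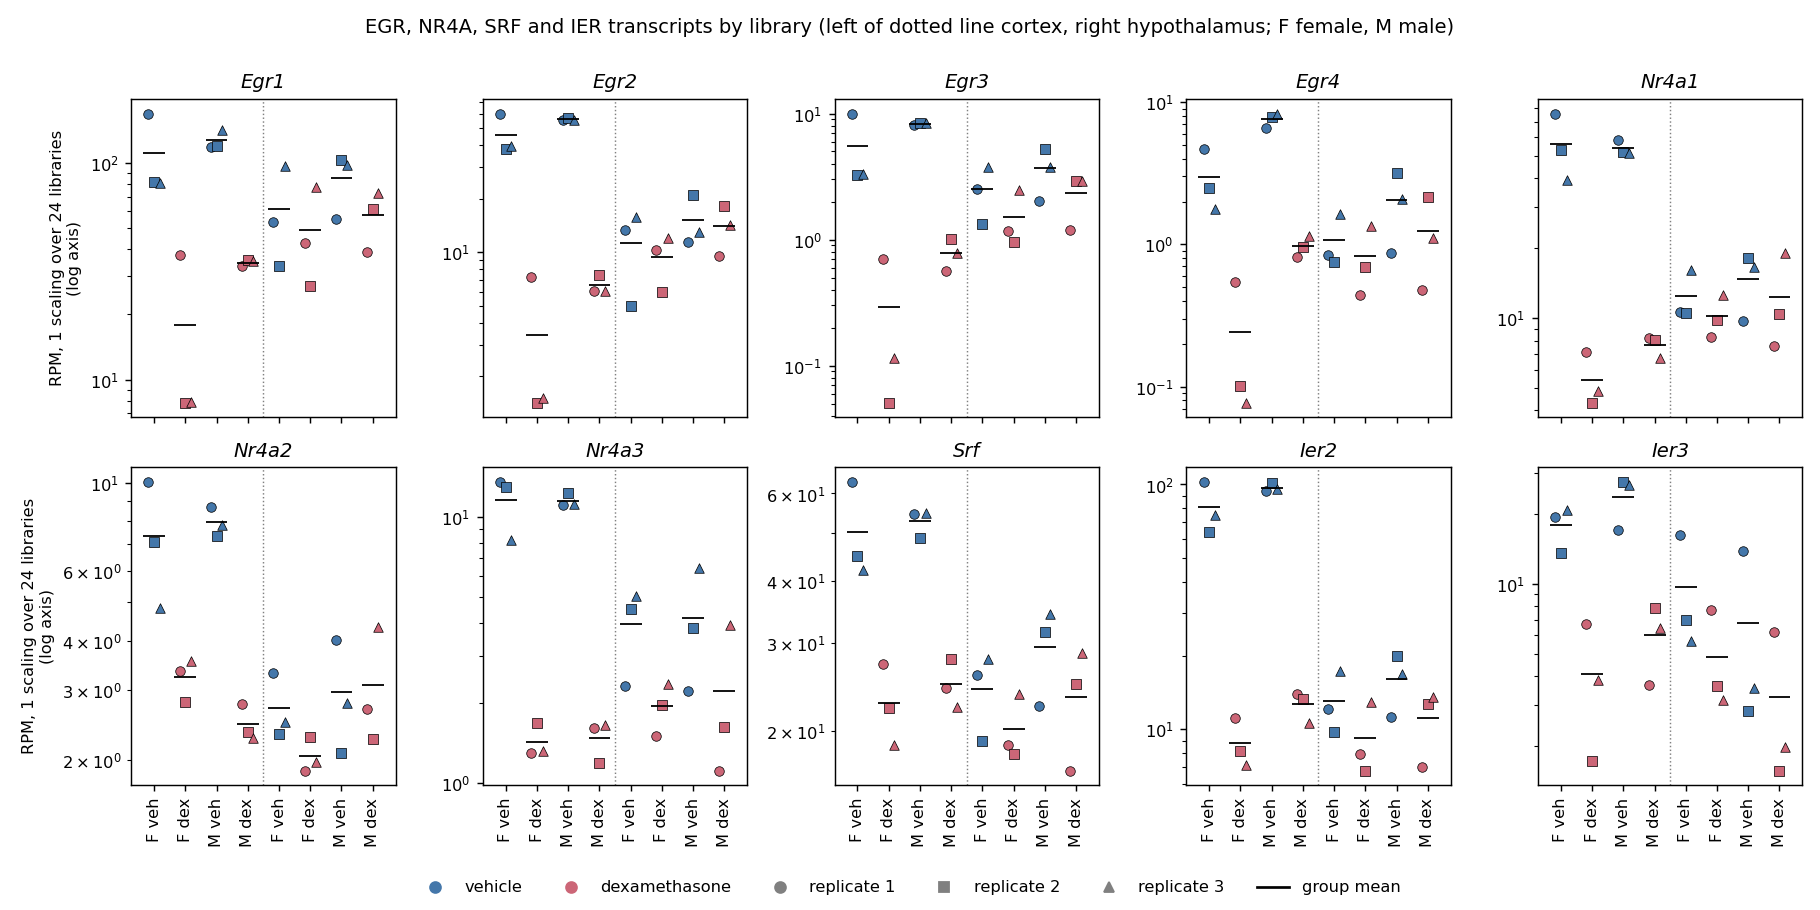
Level of each gene in all 24 libraries, in reads per M reads (RPM) on 1 scaling over both regions (log axis); F female, M male, veh vehicle, dex dexamethasone; symbols give the replicate number and bars the group mean (n = 3). In cortex, left of the dotted line, the dexamethasone libraries of all 10 genes lie below the vehicle libraries of the same sex, whereas in hypothalamus the groups overlap.

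In cortex, all 10 genes were lower with dexamethasone than with vehicle in every library of either sex, and the mean after treatment was 5.16% to 44.5% of vehicle in female and 9.48% to 47.4% in male cultures. By limma with Benjamini-Hochberg adjustment over all genes, 8 of 10 fell in female cortex, where 3.02% of 13314 genes tested were called lower, and 10 of 10 in male cortex, where 20.9% of 13205 were. The 2 groups did not overlap for 10 of 10 genes in either sex, against 14.7% of genes in female and 24.5% in male cortex whose dexamethasone libraries all lay below vehicle. The genes' median log2 change was -2.45 in female and -2.33 in male cortex, beside 0.02 and 0.04 over all genes tested. RNA per cell and the number of cells expressing a gene cannot be told apart in these bulk libraries.

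Egr1, which links mitogen and synaptic signals to transcription, stood at 206.0, 104.9 and 103.0 RPM in female cortex vehicle replicates 1, 2 and 3 and at 45.7, 9.66 and 9.86 RPM with dexamethasone. In male cortex it stood at 147.4, 147.4 and 174.7 RPM and then at 41.3, 43.8 and 43.9 RPM. The highest vehicle and the highest treated library of females both came from replicate 1, while the male libraries of a group lay close together. Egr1 changed by -2.91 ± 0.63 (log2, SE) in female cortex, which did not pass (adjusted p = 0.0593), and fell by 1.84 ± 0.07 in male cortex (adjusted p = 6.44e-08). With the replicate number as a block, since same-numbered libraries deviated together in female cortex, Egr1 also passed there (adjusted p = 3.41e-05).

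Egr2 (Krox20), known from hindbrain patterning and Schwann cell myelination, was at 73.1, 48.4 and 50.1 RPM with vehicle in female cortex and at 8.79, 1.76 and 1.88 RPM with dexamethasone. Its male cortex libraries held 68.0, 70.0 and 67.6 RPM and then 7.5, 9.15 and 7.52 RPM. The treated libraries of both sexes thus lay far below every vehicle library. The change was -3.75 ± 0.51 in female (adjusted p = 0.0229) and -2.95 ± 0.08 in male cortex (adjusted p = 8.06e-09), the most negative of the 10 genes in each sex on the log2(RPM + 1) scale. In the authors' deposited table the most negative log2 change was that of Egr3, -4.2 in females and -3.39 in males, beside -3.78 and -3.09 for Egr2.

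Egr3, needed for muscle spindle development and induced by synaptic activity, and Egr4 (NGFI-C), a further zinc-finger member, were low. Egr3 was at 12.2, 4.19 and 4.17 RPM with vehicle in female cortex and at 0.850, 0.0627 and 0.144 RPM with dexamethasone, the last 3 resting on 18, 1 and 3 reads. In male cortex Egr3 was at 9.98, 10.4 and 10.3 RPM and then at 0.696, 1.24 and 0.972 RPM. Treated libraries again lay below all vehicle libraries, and female replicate 1 was again the highest of its group. Egr4 was at 5.66, 3.17 and 2.25 RPM in female cortex vehicle libraries and at 0.661, 0.125 and 0.0962 RPM after treatment. Male Egr4 values were 8.12, 9.64 and 10.2 RPM and then 1.02, 1.18 and 1.43 RPM. On the log2(RPM + 1) scale, which understates the change of low genes, Egr3 fell by 2.43 ± 0.43 and 2.52 ± 0.13 and Egr4 by 1.82 ± 0.31 and 2.22 ± 0.13 in female and male cortex. In female cortex both genes met the minimum of 1 RPM in 3 libraries through the vehicle group alone, so their calls there are partly set by that filter; their adjusted p was 0.0402 and 0.0387.

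The NR4A receptors differed among themselves. Nr4a1 (Nur77), a mediator of stress and apoptosis signals, was at 92.4, 67.6 and 50.1 RPM in female cortex vehicle libraries and at 8.60, 5.33 and 6.06 RPM with dexamethasone. Its male levels were 72.5, 64.0 and 62.7 RPM and then 10.2, 9.91 and 8.34 RPM. Every treated library lay far below every vehicle library of its sex. Nr4a1 fell by 3.19 ± 0.27 in female (adjusted p = 0.00441) and 2.69 ± 0.09 in male cortex (adjusted p = 2.27e-08).

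Nr4a2 (Nurr1), required for midbrain dopamine neurons, had a narrow gap in female cortex. It was at 12.3, 9.03 and 6.14 RPM with vehicle and 4.06, 3.45 and 4.43 RPM with dexamethasone. In male cortex it was at 10.7, 9.02 and 9.57 RPM and then at 3.43, 2.91 and 2.81 RPM. The groups did not overlap, although the lowest female vehicle library, replicate 3, stood close to the treated library of the same number. Its change of -0.99 ± 0.25 in female cortex did not pass without the block (adjusted p = 0.0845) and passed with it (adjusted p = 0.00432); in male cortex Nr4a2 fell by 1.41 ± 0.11 (adjusted p = 6.83e-06).

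Nr4a3 (Nor1), the third receptor, was at 16.5, 16.5 and 10.4 RPM and then at 1.56, 2.07 and 1.64 RPM in female cortex. Male cortex gave 13.8, 15.1 and 13.7 RPM with vehicle and 1.98, 1.45 and 2.05 RPM with dexamethasone. Treated libraries of both sexes fell in 1 narrow range well below vehicle. It fell by 2.47 ± 0.22 in female (adjusted p = 0.00517) and 2.43 ± 0.12 in male cortex (adjusted p = 2.54e-07).

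Srf, which encodes the factor that binds the CArG boxes printed above, lost less. It was at 77.1, 57.2 and 53.3 RPM with vehicle and 32.9, 27.3 and 23.3 RPM with dexamethasone in female cortex. In male cortex the levels were 67.6, 60.0 and 67.1 RPM and then 30.3, 34.3 and 27.6 RPM. The groups were separate in both sexes, with treated means at 44.5% of vehicle in females and 47.4% in males. Srf fell by 1.13 ± 0.19 (adjusted p = 0.0362) and 1.06 ± 0.09 (adjusted p = 7.74e-06), the smallest change of the 10 genes in male cortex.

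Ier2, a nuclear protein induced by serum, was at 124.8, 81.4 and 95.5 RPM in female cortex vehicle libraries and at 13.4, 10.1 and 8.95 RPM after dexamethasone. Male libraries gave 116.3, 124.6 and 117.1 RPM and then 17.3, 16.5 and 13.3 RPM. Every treated library was below every vehicle library, and the spread within each group was small against the gap. Ier2 fell by 3.10 ± 0.21 (adjusted p = 0.00278) in female and 2.86 ± 0.09 (adjusted p = 1.76e-08) in male cortex. Ier3, a stress-inducible regulator of cell survival, was more variable, at 23.6, 17.3 and 26.3 RPM and then 8.08, 2.13 and 4.81 RPM in female cortex. Its male values were 21.1, 33.7 and 32.5 RPM and then 4.55, 9.69 and 8.03 RPM. Replicate 2 was lowest of both female groups, and replicate 1 lowest of both male groups. Ier3 fell by 2.07 ± 0.40 (adjusted p = 0.0469) and 1.86 ± 0.24 (adjusted p = 0.000158).

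**Figure D2:**
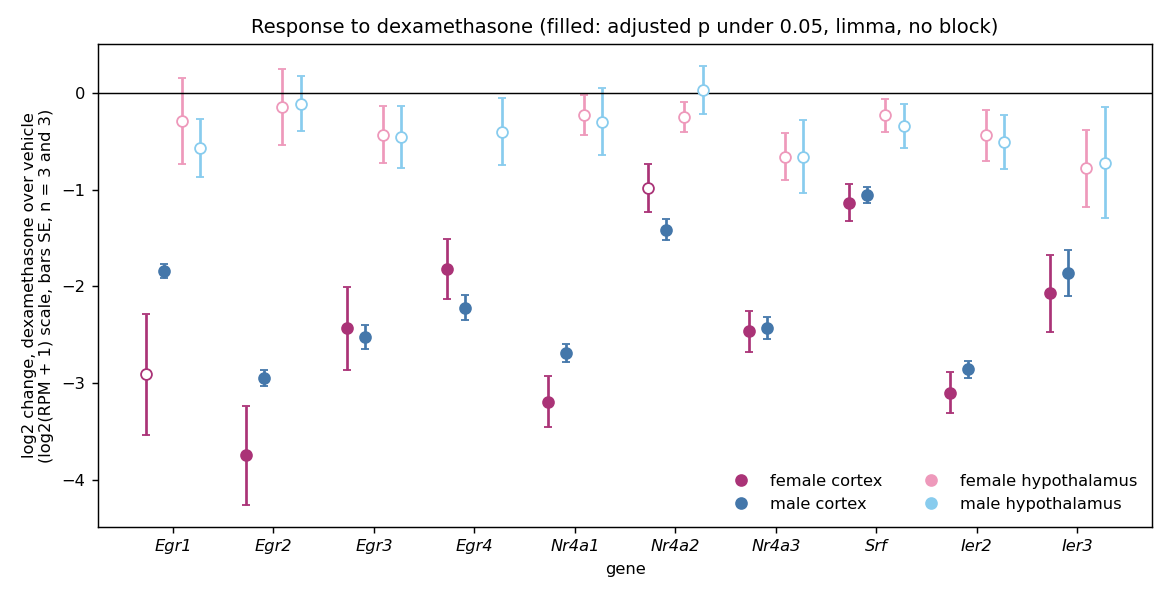
Log2 change with dexamethasone over vehicle for each gene in the 4 comparisons (log2(RPM + 1) scale, bars SE, n = 3 and 3); filled points passed an adjusted p of 0.05 by limma without a block, and Egr4 was not tested in female hypothalamus. Cortex changes lie between -3.75 and -0.99, hypothalamus changes between -0.78 and 0.03.

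The female cortex count rests on few libraries. It was 7 of 8 genes tested without replicate 1, 0 of 8 without replicate 2 and 0 of 8 without replicate 3, and 5 of 10 by edgeR's quasi-likelihood test. The share of all genes called in those fits is not given here. With the block the count was 10 of 10, where 18.2% of genes were called lower and 19.9% higher. In the authors' deposited table all 10 genes passed in both cortices, with adjusted p of at most 0.000415 in females (Nr4a2) and 0.000342 in males (Egr1). Markers of other neural cells moved with treatment in cortex as well. The rescaled sum of 8 oligodendrocyte lineage markers was 1231 to 1490 RPM with vehicle and 1726 to 2219 RPM with dexamethasone in females and 1109 to 1229 RPM and then 1616 to 1675 RPM in males, where 8 of 8 rose by limma. The sum of 7 astrocyte markers was 444 to 510 RPM and then 684 to 903 RPM in males, where 6 of 7 rose. In females it overlapped, at 305 to 1431 RPM and 607 to 2245 RPM. Of all genes tested in male cortex, 26.7% were called higher and 20.9% lower. The sum of 8 neuronal markers was 615 to 792 RPM and then 956 to 1122 RPM in females and 641 to 689 RPM and then 832 to 967 RPM in males, which is mostly Map2, a microtubule protein gene. Of the 6 neuronal markers tested in male cortex, Map2 rose by 0.50 and the neuronal genes Neurod1 and Gad1 fell by 0.90 and 1.06, with a median of -0.08. In female cortex 0 genes of these 3 lists passed without the block, and with it 6 of 8 oligodendrocyte, 5 of 7 astrocyte and 2 of 6 neuronal markers rose and 1 neuronal marker, Gad1, fell. The part of these markers in the falls was not tested.

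In hypothalamus the same 10 genes had smaller differences, and the groups overlapped for each of them in both sexes, where 6.09% of genes in females and 6.43% in males had every dexamethasone library below vehicle. By limma 0 of 9 genes tested passed in female hypothalamus, where 0.048% of genes were called lower, and 0 of 10 in male hypothalamus, where 0.0% were. At an unadjusted p under 0.05 the numbers were 1 and 0, and edgeR and DESeq2 also called 0 in each sex. Egr4 did not reach the minimum level in female hypothalamus and was not tested there. Treated means were 49.8% to 83.9% of vehicle in females and 47.4% to 103.7% in males.

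Within a replicate number, however, dexamethasone was the lower library in 28 of 30 gene and replicate combinations of female and 26 of 30 of male hypothalamus, against 30 of 30 in each cortex. These combinations are 10 genes in the same 3 pairs of each sex, so they are not independent. The share of such pairs over all genes was not counted. The same-numbered libraries deviated together in hypothalamus, and with the replicate number as a block 3 of 9 genes fell in females, where 2.91% of genes were called lower and 4.24% higher, and 5 of 10 in males, where 8.01% were lower and 5.09% higher. Nr4a3, Ier2 and Ier3 passed in both sexes, and Egr1 and Srf in males.

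Ier3 was at 12.9, 5.55 and 4.48 RPM in vehicle replicates 1, 2 and 3 of female hypothalamus and at 6.07, 2.98 and 2.51 RPM with dexamethasone. In males it was at 11.2, 2.30 and 2.82 RPM and then at 4.93, 1.23 and 1.59 RPM. Replicate 1 was the highest of all 4 groups, and its treated library exceeded the other vehicle libraries of its sex, so the groups overlapped although each number fell. The blocked change was -0.78 ± 0.12 in females (adjusted p = 0.00578) and -0.72 ± 0.14 in males (adjusted p = 0.00789).

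Nr4a3 was at 1.83, 3.56 and 3.99 RPM and then at 1.18, 1.62 and 1.87 RPM in female hypothalamus. Its male values were 1.79, 3.13 and 5.09 RPM and then 0.885, 1.28 and 3.14 RPM. Here replicate 1 was the lowest of each group and replicate 3 the highest, the reverse of the place replicate 1 took for Ier3. Nr4a3 fell by 0.66 in both sexes with the block (adjusted p = 0.0251 and 0.0103).

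Ier2 was at 9.57, 7.73 and 13.7 RPM and then at 6.29, 5.59 and 10.3 RPM in female hypothalamus. Male libraries held 9.13, 16.3 and 13.3 RPM and then 5.63, 10.1 and 10.9 RPM. Every treated library was below the vehicle library of its number, and Ier2 fell by 0.44 (adjusted p = 0.0335) and 0.51 (adjusted p = 0.0111) with the block. Egr1 was at 42.6, 26.6 and 76.8 RPM and then at 33.7, 22.4 and 61.8 RPM in females. Male Egr1 was at 44.5, 84.5 and 77.6 RPM and then at 30.9, 48.3 and 58.6 RPM. The range of the vehicle libraries exceeded each fall within a number, and the blocked change of -0.57 ± 0.08 in males passed (adjusted p = 0.00154), while the change of -0.29 in females did not (adjusted p = 0.0509).

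Srf was at 20.5, 15.1 and 22.1 RPM and then at 14.8, 14.8 and 18.8 RPM in female hypothalamus. In males it was at 18.1, 25.8 and 27.1 RPM and then at 13.3, 19.6 and 23.1 RPM. All 6 same-numbered pairs were lower with dexamethasone, those of female replicate 2 by the least, and the blocked test passed in males (-0.34, adjusted p = 0.0184) and not in females (-0.23, adjusted p = 0.207).

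Egr2, Nr4a1 and Nr4a2 did not move one way. Egr2 was at 10.5, 3.93 and 12.4 RPM and then at 8.12, 4.91 and 9.52 RPM in female hypothalamus, and at 9.18, 17.1 and 10.3 RPM and then at 7.65, 14.3 and 11.5 RPM in males. It was higher with dexamethasone in female replicate 2 and male replicate 3. Nr4a1 was at 8.46, 8.33 and 12.8 RPM and then at 6.55, 8.10 and 9.94 RPM in females and at 7.88, 14.8 and 13 RPM and then at 6.07, 8.23 and 15.3 RPM in males, where replicate 3 was higher after treatment. Nr4a2 was at 2.63, 1.85 and 1.98 RPM and then at 1.48, 1.88 and 1.57 RPM in females, and at 3.26, 1.70 and 2.19 RPM and then at 2.15, 1.78 and 3.49 RPM in males. It was lower in 2 of 3 female and 1 of 3 male pairs, and the blocked adjusted p of these 3 genes was at least 0.222 in each sex. Egr3 and Egr4, at 0.349 to 4.28 RPM in all hypothalamus libraries, were lower with dexamethasone in all 6 pairs, and neither passed with the block where tested.

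**Figure D3:**
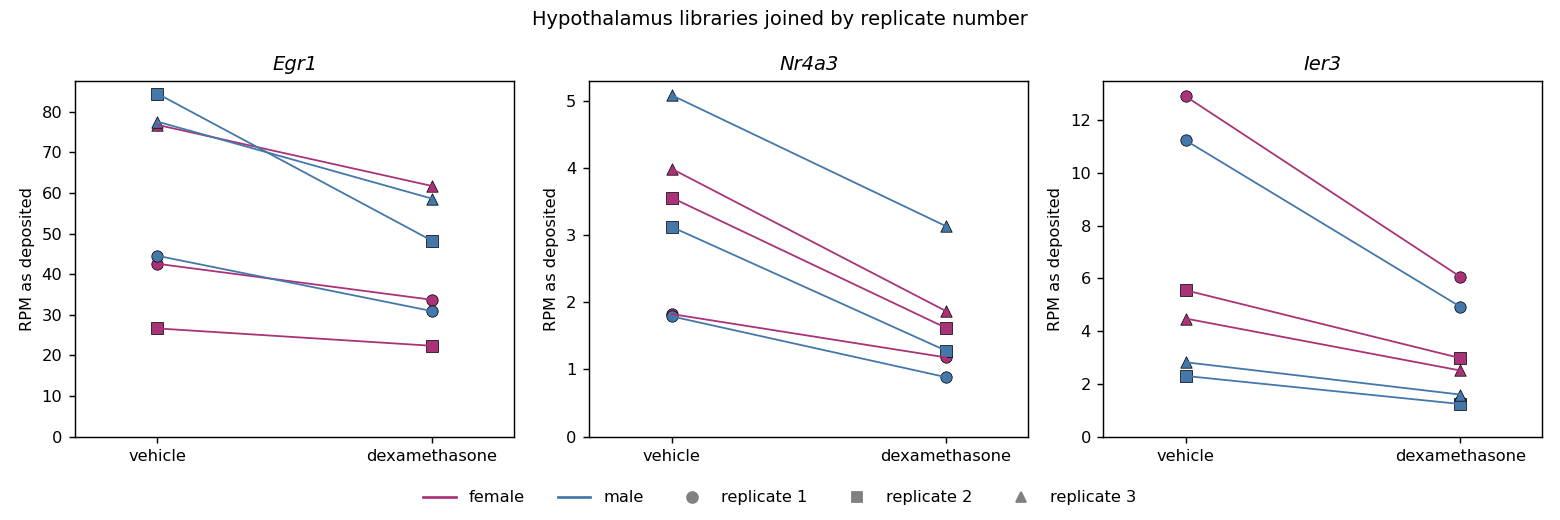
Egr1, Nr4a3 and Ier3 in the 12 hypothalamus libraries as deposited (RPM), with vehicle and dexamethasone libraries of the same replicate number joined. Each line falls, while the vehicle libraries of a sex span more than any 1 of its falls, and replicate 1 is low for Nr4a3 and high for Ier3.

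Without male hypothalamus replicate 2, the culture that held Xist, 0 of 9 genes passed without the block and 2 of 9 (Egr1 and Ier3) with it, on 1 residual degree of freedom per gene. For those fits the share of all genes called is not given here. The authors' deposited table gave an adjusted p of 1 for all 10 genes in both hypothalamus comparisons.

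**Figure D4:**
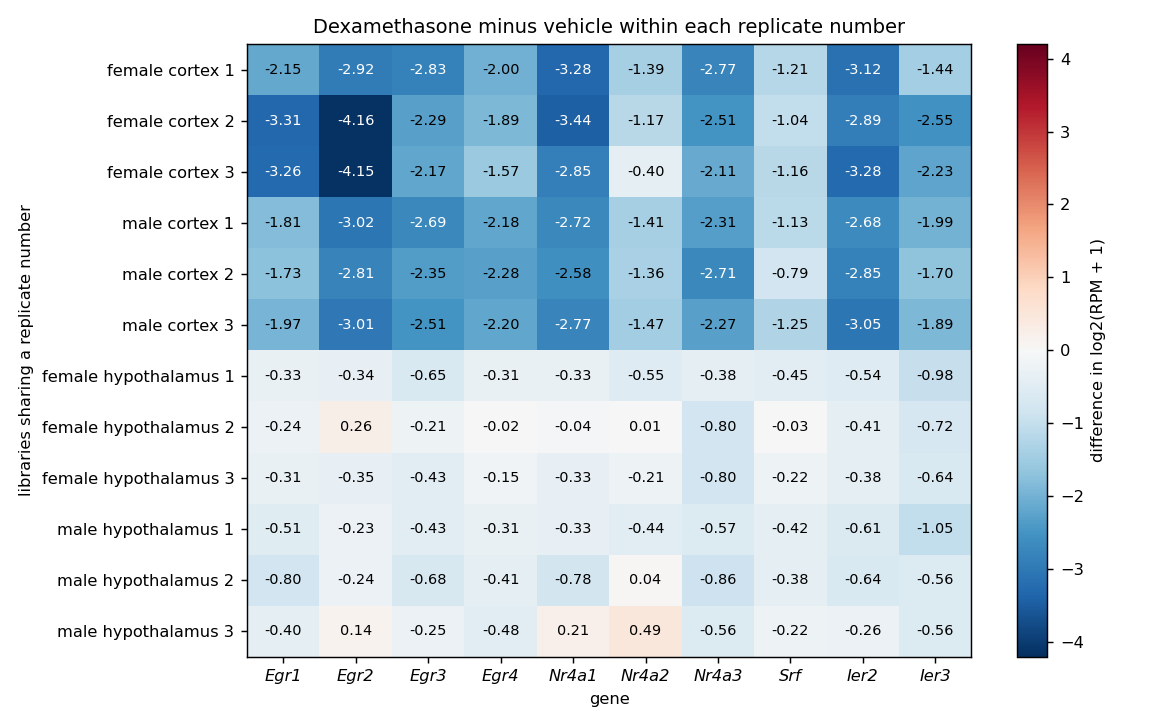
Difference in log2(RPM + 1) between the dexamethasone and vehicle library of the same replicate number, for each gene (columns) and each of 12 pairs (rows); blue is lower with dexamethasone. The 6 cortex rows are lower throughout, down to -4.16 for Egr2, and the 6 hypothalamus rows lie between -1.05 and 0.49.

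The difference between regions was tested directly, as the hypothalamus log2 change minus the cortex log2 change averaged over both sexes on reads rescaled over all 24 libraries. It was above 0 for all 10 genes, meaning a less negative response in hypothalamus, and 9 of 10 passed, where 7.3% of 13932 genes were called in that direction. On the log2(RPM + 1) scale Egr2 differed most, by 3.15 ± 0.41 (SE, adjusted p = 4.4e-05), followed by Nr4a1 with 2.63 ± 0.29 and Ier2 with 2.46 ± 0.27. Ier3 differed by 1.13 ± 0.51 and did not pass (adjusted p = 0.158). The median over the 10 genes was 1.73, beside -0.04 over all genes. The number that passed was 8 in male libraries alone, 2 (Nr4a1 and Ier2) in female libraries alone, 10, 4 and 5 without replicates 1, 2 and 3, and 9 without male hypothalamus replicate 2. How many of all genes passed in those fits is not given here.

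**Figure D5:**
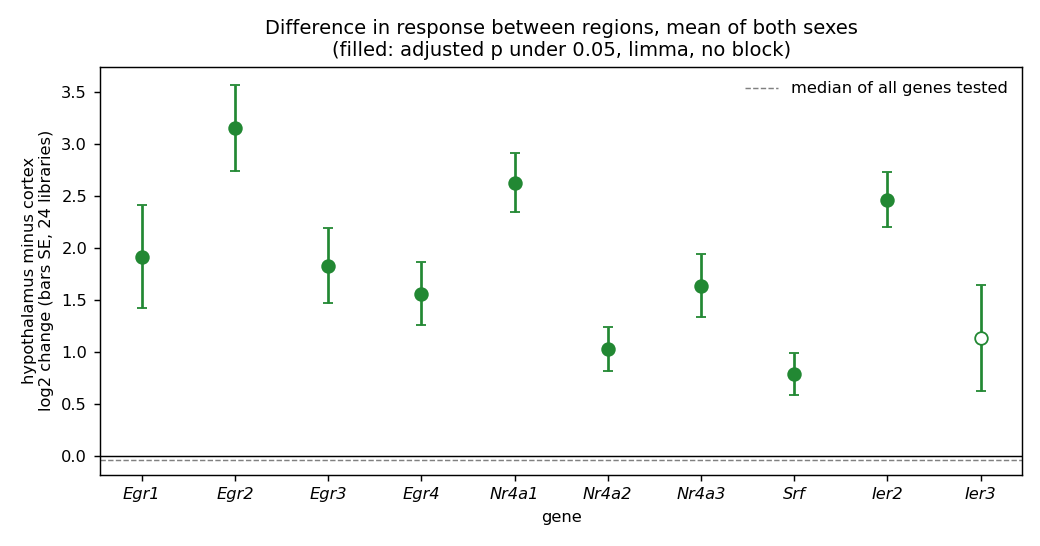
Difference between regions in the log2 change with dexamethasone, hypothalamus minus cortex (bars SE, 24 libraries), with the median of all genes tested as a dashed line near 0. Filled points passed an adjusted p of 0.05; 9 of 10 genes did, and the values run from 0.79 for Srf to 3.15 for Egr2.

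The regions also differed before treatment. The tables were normalised separately, so levels were set on 1 scaling over all libraries and are given as a description. Cortex vehicle means exceeded hypothalamus vehicle means for all 10 genes, from 1.62 times for Egr1 to 6.12 times for Ier2. Vehicle libraries of the 2 regions did not overlap for 6 genes (Egr2, Nr4a1, Nr4a2, Nr4a3, Srf and Ier2), while 16.4% of genes had cortex above hypothalamus without overlap. Ier2 ran from 63.8 to 102.5 RPM in the 6 cortex vehicle libraries (median 94.8) and from 9.74 to 19.9 RPM in hypothalamus (median 14.4). Treated cortex libraries held 7.18 to 14 RPM of it (median 10.9), and overlapped the hypothalamus vehicle range.

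With dexamethasone, cortex levels came down to the untreated hypothalamus range or below it. Of the 10 genes, 0 were above hypothalamus vehicle without overlap after treatment, a pattern seen in 15.6% of genes. For Srf the treated cortex mean was 0.89 times, and for Nr4a2 1.00 times, the hypothalamus vehicle mean. Egr3, Nr4a1 and Nr4a3 lay below it without overlap, at 0.17, 0.48 and 0.36 times. The share of all genes that lay below in this way was not counted. Egr1 ran from 7.83 to 37.8 RPM in treated cortex (median 34.4) against 33.6 to 103.6 RPM in untreated hypothalamus (median 75.9), and the 2 overlapped narrowly. The dexamethasone libraries of the 2 regions overlapped for all 10 genes, and the share of all genes that did so was not counted.

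Per kilobase of exon and on the same scaling, Ier2 was the most abundant of the 10 in cortex vehicle libraries, at 58.3 ± 10.3 RPM per kb (SD, n = 6), followed by Egr1 at 26.6 ± 7.63. Ier3, Srf, Nr4a1 and Egr2 followed at 18.4, 17.8, 15.7 and 14.9 RPM per kb, and neighbours from Egr1 to Egr2 overlapped in range. Egr4, Nr4a3, Nr4a2 and Egr3 formed a lower set at 2.45 to 1.57 RPM per kb, also overlapping with each other. In treated cortex Srf led at 8.21 ± 1.19 RPM per kb, and its range overlapped that of Ier2 at 7.06 ± 1.78. In hypothalamus vehicle libraries Egr1 led at 16.4 ± 6.61 RPM per kb, with Ier2 at 9.54 ± 2.66 and Srf at 9.28 ± 1.96 overlapping its range.

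No difference in response between the sexes passed the test. In cortex and in hypothalamus 0 of 10 genes passed by limma, 0 had an unadjusted p under 0.05 in either region, edgeR called 0, and 0.0% of all genes were called. The hypothalamus test included male replicate 2, which held Xist, and was not run without that culture alone. Without the replicate 2 libraries of both sexes, 5 of 10 hypothalamus estimates turned sign, and 0 of those passed. Egr1 in cortex had the largest estimate, male minus female 1.03 ± 0.71, with Egr2 next at 0.76 ± 0.58. Those 2 estimates depend on replicate 1. Without the replicate 1 libraries of both sexes they were 1.38 ± 0.14 (adjusted p = 0.0147) and 1.19 ± 0.17 (adjusted p = 0.031), and both passed. The share of all genes called in that fit is not given here. The female replicates kept in it held more Gfap than the male cortex means of 5.43 RPM with vehicle and 10.5 RPM with dexamethasone. The part of this in the 2 estimates was not tested. Female cortex replicate 1 was not left out alone.

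Genes that work with these factors were counted from lists. Of 20 other immediate-early genes, 14 fell in female cortex and 20 in male cortex, where 3.02% and 20.9% of all genes were called lower. Atf3, a stress-induced factor, was at -4.81 ± 0.22 and -5.14 ± 0.10 and Fosb, an AP-1 subunit, at -4.14 ± 0.22 and -4.50 ± 0.13. Fosb, at means of 0.454 and 0.211 RPM with dexamethasone in female and male cortex, Fosl1 and Npas4 met the minimum level through the vehicle libraries alone in both sexes, so these 3 calls are partly set by that filter. In each hypothalamus 0 of 18 tested passed without the block. With it 5 fell in each sex, where 2.91% of all genes in females and 8.01% in males were called lower. These 5, named after their values were seen, were Jun, Ier5, Klf4, Npas4 and Gem in both sexes. In female hypothalamus 1 of 18, the activity-regulated gene Arc, rose with the block, by 0.69 ± 0.17 (adjusted p = 0.0468). There 4.24% of all genes were called higher, near that share. The difference between regions was above 0 and passed for 15 of 20, where 7.3% of all genes were called above 0, and the list's median was 1.83. Nab2 and Nab1, which encode corepressors that bind EGR proteins, fell in male cortex by 0.98 ± 0.07 and 0.52 ± 0.06 and were at -1.70 and -0.71 in female cortex, which did not pass without the block.

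Among SRF partners tested in male cortex, Mkl1 and Mkl2, the actin-regulated coactivators, fell by 0.60 ± 0.09 and 0.35 ± 0.10, while Elk1 rose by 0.29 ± 0.09. None of the 5 tested passed in female cortex. With the block 1 of 5, Elk3, fell in female hypothalamus, where 2.91% of all genes were called lower. In male hypothalamus 4 of 5 (Elk3, Elk4, Mkl1 and Mkl2) fell with the block, where 8.01% of all genes were called lower. Of 16 cytoskeletal and matricellular SRF targets, 11 fell in male cortex, where 20.9% of all genes did. They were led by the matricellular gene Cyr61 at -3.03 ± 0.10 and the focal adhesion gene Zyx at -1.28 ± 0.07. In female cortex 1 of 14, Cyr61, fell by 2.07 ± 0.39, where 3.02% of all genes were called lower. In female hypothalamus 1 of 16 targets passed, where 0.793% of all genes were called higher. It was Ctgf, a relative of Cyr61, which rose by 1.54 ± 0.16 (adjusted p = 0.00901). With the block 3 of 14 targets fell and Ctgf rose in male hypothalamus, where 8.01% of all genes were lower and 5.09% higher.

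Other partners moved less. Of 8 CREB family members and coactivators, 4 fell in male cortex (Atf1, Crtc1, Crebbp and Ep300), by 0.33 to 0.48, and 0 passed in female cortex; 20.9% of all genes fell in male cortex. Of 13 ERK cascade genes, 5 rose and 2 fell in male cortex, where 26.7% of all genes rose and 20.9% fell, with the largest changes in the kinase gene Rps6ka2 (0.60 ± 0.08) and Hras (-0.58 ± 0.07), and 0 passed in female cortex. Rxra, a nuclear receptor that pairs with NR4A1 and NR4A2, rose in both cortices, by 1.27 in females and 1.01 in males. In hypothalamus 0 genes of the CREB, ERK and RXR lists passed in either sex without the block. With it Rxra rose in both, by 0.94 ± 0.09 in females (adjusted p = 0.000604) and 0.77 ± 0.09 in males (adjusted p = 0.000498), its groups not overlapping in either. In male hypothalamus with the block 1 of 8 CREB genes, Crtc1, fell, by 0.45 ± 0.10. Of 13 ERK cascade genes there, 1 rose (Map2k1, by 0.30) and 1 fell (Mapk3, by 0.36). In that fit 8.01% of all genes were called lower and 5.09% higher, near the shares of these 2 lists. In female cortex the block gave 19 of 20 other immediate-early genes, both Nab genes, 8 of 14 SRF targets and 5 of 8 CREB genes lower. It also gave 1 of 5 SRF partners lower and 3 of 13 ERK cascade genes in each direction. In that fit 18.2% of all genes were called lower and 19.9% higher, near the shares of the SRF partners and ERK cascade genes.

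Over the 24 libraries, which share treatment and region, the genes whose log2(RPM + 1) followed Egr1 most closely were Aars, Kcmf1 and Itpripl1 (Pearson r = 0.967, 0.955 and 0.954, among 10521 genes). Closest to Nr4a1 were Atf4, Klf4 and Zbtb2 (0.961, 0.959 and 0.953). Ier3 was closest to Slc2a1, Vldlr and Pfkfb3, at 0.917, 0.890 and 0.881. These are descriptions, since the libraries fall into the groups by design.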

How the data were processed

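Total RNA was sequenced with a stranded kit on 2 lanes per sample, held as 1 column per library. The submitters' processing notes name TopHat2 (2.0.13 and 2.0.9), HTSeq and GRCm38; annotation and strand setting are not given in the sources used here. The authors deposited 4 tables of normalised signal per gene in reads per M reads (RPM), with their group means, edgeR fold ratio, log2 fold change, p-value and adjusted p. Signal values were whole multiples of 1 read (100% within 0.01 read), so reads were recovered. Of 38924 entries, 4 sharing a name were left out and 38920 kept; 27 entries carry dates as names. Unused columns of per-sample values numbered 0.

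Each treatment comparison used limma 3.58.1 (R 4.3.3, trend) on log2(RPM + 1) for genes that reached 1 RPM in at least 3 of the 6 libraries. Differences between sexes (12 libraries) and regions (24) were interaction terms on recovered reads rescaled by edgeR's TMM. All p-values were adjusted over all genes tested. edgeR 4.0.16 and DESeq2 1.42.0 on recovered reads, other pseudocounts and filters, a replicate block and leaving out replicates were alternatives. The fits were tested on simulated data.

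Whether replicate numbers pair libraries was checked by the correlation, over genes, of deviations from group means. Same-numbered libraries gave 0.872, 0.824 and 0.494 in female cortex, 0.736, 0.607 and 0.752 in female hypothalamus and 0.765, 0.655 and 0.751 in male hypothalamus, so blocked values are given there; the labels' replicate numbers are the source of the pairing.

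All 10 genes are named whatever their values. Of other lists, genes of lists up to 8 and the 2 largest called changes of longer lists may be named, and the 3 genes most like Egr1, Nr4a1 and Ier3 among those with a mean of at least 5 RPM. The genes and lists were chosen with earlier results of these data known.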

Additional observations from a re-analysis of the deposited data

Results flagged for a closer look

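The response to dexamethasone differed between hypothalamus and cortex for 9 of the 10 genes by the test of the difference itself (limma interaction, adjusted over all genes). The differences, hypothalamus minus cortex on the log2 scale, were 3.15 for Egr2, 2.63 for Nr4a1, 2.46 for Ier2, 1.91 for Egr1, 1.83 for Egr3, 1.64 for Nr4a3, 1.56 for Egr4, 1.03 for Nr4a2 and 0.79 for Srf. The share of reads in mt-Rnr2 and the level of contractile markers differ between the regions as well, and their part in the difference was not tested. The scale matters for low genes: on recovered reads by edgeR the difference was 3.12 for Egr3 and 2.74 for Egr4.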

How the results depend on the processing

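In female cortex the count of 8 became 5 by edgeR, 0 to 7 without single replicates, and 8 of 8 tested with the block and 1 replicate left out. The count of 0 in female hypothalamus became 3 with the replicate block, and 2 to 8 with the block and 1 replicate left out; in male hypothalamus it became 5, and 2 to 6. These fits with the block and without a replicate, chosen after seeing the data, have 1 residual degree of freedom per gene. The block also moved the share of all genes called lower, from 0.048% to 2.91% in female and from 0.0% to 8.01% in male hypothalamus. Shares for the fits without a replicate, by edgeR or in 1 sex are not given here. The regional count of 9 became 2 in female libraries alone and 4 to 10 without 1 replicate number in all groups. The sex difference in cortex, 0, became 2 without replicate 1 of both sexes and was 0 without replicate 2 or 3 of both. In male cortex same-numbered libraries gave lower correlations, of 0.362, 0.021 and 0.391, beside -0.427 to 0.034 between different numbers. There the block kept 10 of 10. The block gave 0 for both sex differences and 10 for the regional one. With 1 replicate left out, fewer libraries bring fewer genes past the minimum level; otherwise the cause was not tested.

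Signs turned only in estimates that did not pass. Nr4a2 in male hypothalamus (0.03) ran from -0.20 to 0.27 without single replicates, and was -0.20 with the block and without replicate 3. Of 139 estimates of the sex differences under alternatives, 20 turned sign, and 0 of these passed.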
